A study of Homo sapiens with 6 samples.

Results

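Transcript levels of 10 genes of the nuclear lamina and the inner nuclear membrane were compared between control and OFD1-depleted human RPE1 cells. OFD1 is a protein of centrosomes and centriolar satellites. The genes were LMNA, LMNB1, LMNB2, LBR, EMD, TMPO, BANF1, LEMD3, SUN1 and SUN2. The members were matched by symbol, and each was found once among the 67130 genes listed. The rule uses no measured value, but the set was put together with earlier results of these data known. FPKM, the deposited unit, divides the fragments of a gene by its length and by the sequencing depth of the sample. All 10 averaged 1 FPKM or more across the samples and were therefore among the 12025 genes tested.

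RPE1 is a line of human retinal pigment epithelial cells immortalized with hTERT. Every sample carried the same lentiviral Tet-On construct for a hairpin RNA that targets OFD1, in a line named hTERT-RPE1-TOShOFD1, which expresses the hairpin when doxycycline is present. The 3 control samples, whose genotype is given as WT, grew for 72 h without doxycycline. The 3 OFD1-depleted samples, given as OFD1 knockdown, received 200 ng/mL doxycycline for 72 h. No sample received doxycycline without the hairpin or carried a second hairpin, so effects of doxycycline, of this hairpin and of the loss of OFD1 cannot be told apart. The labels number the replicates but do not say that they were separate cultures, although the study calls them biological replicates, so the p-values measure the spread between these samples.

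The nuclear lamina is a meshwork of intermediate filaments under the inner nuclear membrane, built from the A-type lamins of LMNA and the B-type lamins of LMNB1 and LMNB2. Membrane proteins hold it in place: LBR binds B-type lamins and heterochromatin, and the LEM-domain proteins emerin (EMD), LAP2 (TMPO) and MAN1 (LEMD3) bind BAF (BANF1), a small protein that bridges DNA. SUN1 and SUN2 cross the inner membrane and join nesprins of the outer membrane, forming the LINC complex that ties the nucleus to the cytoskeleton. The lamina is taken apart at mitosis and rebuilt at its end, and low LMNB1 is a widely used marker of senescent cells.

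The 3 lamin genes share a short signal at the end of their coding sequence, and it is shown here because the enzymes that act on it are among the genes counted further on. The last 24 coding bases of the canonical GENCODE version 44 transcripts on GRCh38 are given 5′ to 3′, stop codon included, with the 4 codons of the CaaX box in capitals.
LMNA: ccccagaacTGCAGCATCATGtaa
LMNB1: aatagaagcTGTGCAATTATGtaa
LMNB2: tcaagaggcTGCTACGTGATGtga
The LMNA stretch lies at chr1:156139083-156139106 on the plus strand, in exon 12 of 12. The LMNB1 stretch lies at chr5:126836241-126836264 on the plus strand, in exon 11 of 11. The LMNB2 stretch lies at chr19:2430911-2430934 on the minus strand, in exon 12 of 12. In each, the capitals open with a cysteine codon, the residue that is farnesylated, and end with a methionine codon. LMNA yields lamins A and C by alternative splicing, and this end belongs to the precursor of lamin A. The gene-level values do not separate the isoforms.

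OFD1 itself fell to 28.7% of its control mean, with all control samples above all OFD1-depleted samples. The summed FPKM of all genes was 408302 to 414547 in control and 433262 to 493510 in OFD1-depleted samples, and genes encoded by mitochondrial DNA took 8.657% to 13.81% and 15.61% to 19.32% of it. Of 8 markers of retinal pigment epithelium, MITF and OTX2 alone reached a mean of 1 FPKM across all samples. Of the epithelial markers, the keratins KRT8 and KRT18 were at 111 FPKM or more in every sample, whereas EPCAM was listed at 0 and CDH1, the epithelial cadherin, was under 0.1 FPKM in every sample. The mesenchymal markers VIM (4290 FPKM on average in control) and CDH2 (74.9 FPKM) were high, so of the 4 epithelial markers of this list KRT8 and KRT18 alone were expressed. The 6 markers of other retinal or blood cells were all under 1 FPKM, with RCVRN and CRX, both of photoreceptors, listed at 0. OFD1-depleted replicate 2 stood apart from the other libraries: it had the lowest weight when limma weighted the arrays (0.2034, against 0.6428 to 3.685) and was alone in expressing BEST1 (4.33 FPKM, chosen after its values were seen). Across all genes tested, 1429 were lower and 610 higher in OFD1-depleted samples by limma at an adjusted p under 0.05. This split moved to 1988 lower and 268 higher when each sample was scaled to the same total (TPM), to 1311 lower and 1093 higher under quantile normalization, and to 2263 lower and 1693 higher with array weights.

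Part of the nuclear lamina set was lower in OFD1-depleted cells and none of it was higher. LMNB1 and TMPO fell most, to 34.0% and 37.1% of control, followed by SUN2 (58.5%), LMNB2 (64.6%) and LBR (71.4%). These 5 of 10 genes passed an adjusted p of 0.05 as lower, against 11.9% of all genes tested, and 0 of 10 passed as higher, against 5.07% (17.0% in either direction). LMNA, the most abundant of the set, was at 77.3% of control with groups that did not overlap, but did not pass. BANF1, LEMD3, SUN1 and EMD lay between 82.5% and 96.8% of control, with overlapping groups. The log2 fold change was below 0 for 10 of 10 genes, against 53.7% of all genes tested, and its median was -0.44, against -0.03 for all genes. Groups did not overlap for 6 of 10 genes, all of them lower in OFD1-depleted samples, against 22.3% of all genes tested that were lower without overlap and 13.8% that were higher. With control replicate 1 or control replicate 3 left out, 3 of the 10 genes passed, LMNB1, TMPO and SUN2, since LMNB2 and LBR were lost. In these fits 904 and 867 of the 12025 genes tested were lower, against 1429 with every sample kept. Without OFD1-depleted replicate 2, 7 passed, with LMNA and BANF1 added, and 1741 of all genes tested were lower.

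**Figure D1:**
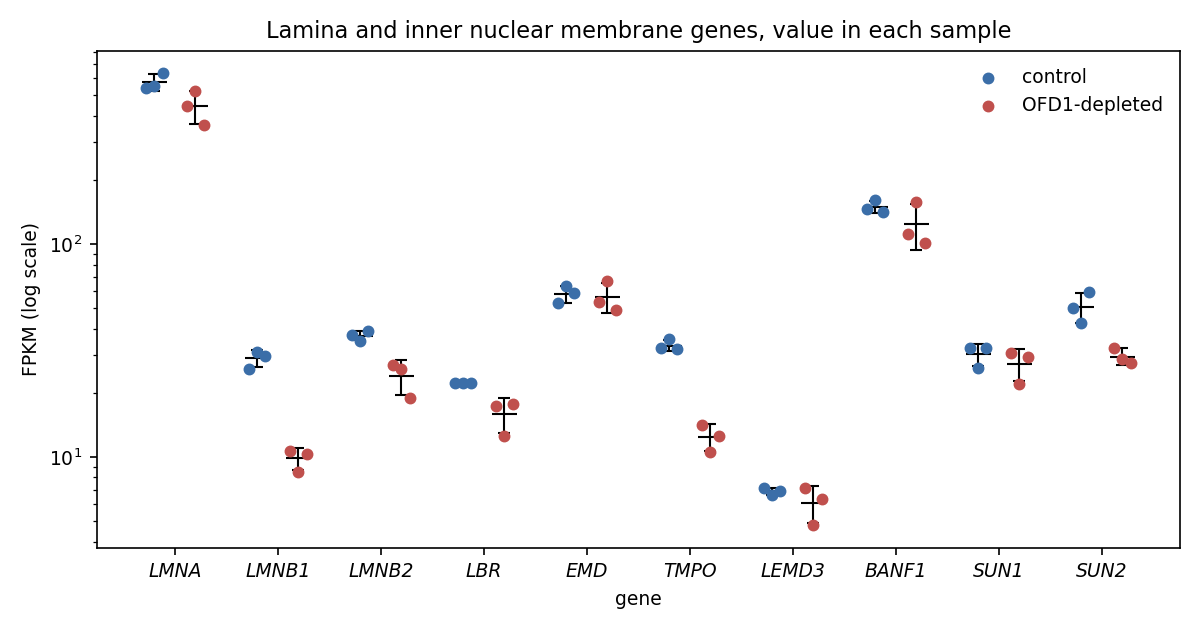
FPKM of the 10 nuclear lamina and inner nuclear membrane genes in each sample, on a log axis, with 3 control and 3 OFD1-depleted samples as points, the group means as horizontal lines and the SD as error bars. The groups are apart for LMNA, LMNB1, LMNB2, LBR, TMPO and SUN2 and overlap for EMD, BANF1, LEMD3 and SUN1.

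LMNB1, which encodes lamin B1 (chr5:126776623-126837020, plus strand), had 26.0, 31.2 and 29.9 FPKM in control replicates 1 to 3 and 10.7, 8.53 and 10.3 FPKM in OFD1-depleted replicates 1 to 3. The highest OFD1-depleted sample was well under the lowest control, and the OFD1-depleted samples lay close together. The mean went from 29.0 ± 2.67 to 9.87 ± 1.17 FPKM (SD, n = 3 each), a log2 fold change of -1.55 (standard error 0.14, limma adjusted p = 4.3e-05). Its 95% confidence interval was -1.86 to -1.24. A log2 fold change this low or lower was seen for 144 genes, or 1.2% of those tested. LMNB1 passed under all 18 alternative settings, with log2 fold changes of -1.7 to -1.4.

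LMNB2 encodes the second B-type lamin, lamin B2 (chr19:2427638-2456959, minus strand). Its values were 37.3, 35.1 and 38.9 FPKM in control and 27.1, 25.8 and 19.0 FPKM after OFD1 depletion. Replicate 3 was the lowest of the OFD1-depleted samples, and no OFD1-depleted value reached a control value. The mean of 37.1 ± 1.89 FPKM became 24.0 ± 4.38 FPKM (SD, n = 3 each), with a log2 fold change of -0.64 (standard error 0.152, limma adjusted p = 0.0141). The call was lost without control replicate 1 (adjusted p = 0.0529 by limma), without control replicate 3 (0.0675) and with no filter on low values (0.0776).

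LMNA encodes lamins A and C (chr1:156082573-156140081, plus strand) and was measured at 539, 552 and 634 FPKM in control and 447, 524 and 363 FPKM after OFD1 depletion. The groups came close, with 524 FPKM in OFD1-depleted replicate 2 next to 539 FPKM in control replicate 1, but did not overlap. The mean was 575 ± 51.3 FPKM in control and 445 ± 80.2 FPKM after OFD1 depletion (SD, n = 3 each). The log2 fold change was -0.38 (95% confidence interval -0.74 to -0.03, before adjustment), with an adjusted p of 0.134 by limma. LMNA passed in 5 of 18 alternatives: without OFD1-depleted replicate 2 it was -0.51 (limma adjusted p = 0.0239), with TPM scaling -0.53 (0.017), with quantile normalization -0.58 (0.00744), with array weights -0.46 (0.0118) and with totals taken without mitochondrially encoded genes -0.44 (0.0381).

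The balance among the lamins can be read within each sample, because FPKM is scaled to length. LMNB1 made up 4.32%, 5.05% and 4.25% of summed lamin FPKM in control and 2.21%, 1.53% and 2.64% in OFD1-depleted samples. LMNB2 was at 5.8% ± 0.347 and 5.02% ± 0.509 (SD, n = 3 each), and LMNA rounded out the sum with 89.7% ± 0.494 and 92.9% ± 0.871. The ratio of LMNB1 to LMNA was 0.0506 ± 0.00512 in control and 0.0229 ± 0.00617 in OFD1-depleted samples, a log2 difference of -1.18 (standard error 0.252). Against its nearest relative, the ratio of LMNB1 to LMNB2 was 0.697, 0.888 and 0.768 in control and 0.396, 0.33 and 0.546 in OFD1-depleted samples, a log2 difference of -0.91 (standard error 0.235). Both ratios kept the groups apart (two-sided exact permutation p = 0.1 each, the smallest that 3 samples against 3 can give, and 0.125 after Benjamini-Hochberg adjustment over the 5 ratios computed). In bulk RNA, fewer cells that express a gene and less of its RNA in each cell cannot be told apart.

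**Figure D2:**
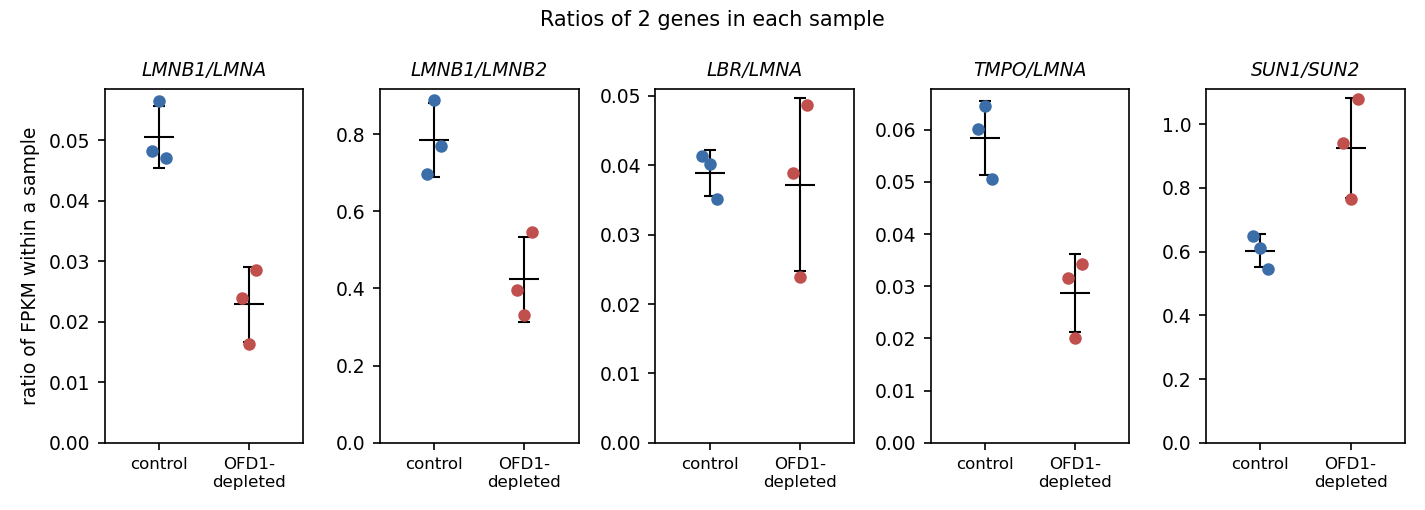
Ratios of FPKM between pairs of genes within each sample, on linear axes from 0, with 3 control and 3 OFD1-depleted samples as points, the group means as horizontal lines and the SD as error bars. LMNB1/LMNA, LMNB1/LMNB2 and TMPO/LMNA are lower and SUN1/SUN2 is higher in OFD1-depleted samples without overlap, while LBR/LMNA overlaps.

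TMPO encodes the LAP2 proteins, of which some are anchored in the inner membrane and LAP2 alpha is found in the nucleoplasm (chr12:98515579-98550351, plus strand). It had 32.4, 35.6 and 32.0 FPKM in control and 14.1, 10.5 and 12.5 FPKM after OFD1 depletion. As for LMNB1, every OFD1-depleted sample was far below every control sample, and replicate 2 was the lowest. The mean fell from 33.3 ± 1.97 to 12.4 ± 1.8 FPKM (SD, n = 3 each), a log2 fold change of -1.43 (standard error 0.14, limma adjusted p = 6.97e-05). It passed under all 18 alternatives. A change this low or lower was seen for 1.64% of the genes tested, and the ratio of TMPO to LMNA was lower by a log2 difference of -1.06 (standard error 0.262) without overlap.

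The TMPO locus overlaps TMPO-AS1 on the other strand, a non-coding RNA named after its values were seen, whose mean was 3.9 FPKM in control and 0.923 FPKM after OFD1 depletion. The labels name a directional library kit beside another kit, and the strand setting of the quantification was not stated, so reads of the antisense RNA may be counted in TMPO. The mean of TMPO was 33.3 FPKM in control and 12.4 FPKM after OFD1 depletion. How many of its reads came from the antisense RNA was not tested.

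LBR, a membrane protein with a sterol reductase domain (chr1:225401502-225428925, minus strand), had 22.2 FPKM in each of the 3 control samples and 17.4, 12.5 and 17.7 FPKM after OFD1 depletion. The OFD1-depleted values were all lower, with replicate 2 lowest. From 22.2 ± 0.0235 FPKM in control, the mean went to 15.9 ± 2.91 FPKM (SD, n = 3 each), with a log2 fold change of -0.50 (standard error 0.152, limma adjusted p = 0.0433). LBR passed in 9 of 18 alternatives, with adjusted p from 0.014 to 0.141, and was lost without any 1 of the 3 control samples and without OFD1-depleted replicate 1 (adjusted p = 0.0528 by limma). The call was also lost with no filter on low values and with no variance trend. Among the scalings, quantile normalization, median-of-ratios scaling and totals taken without mitochondrially encoded genes each removed it. Relative to LMNA, LBR had a ratio of 0.0413, 0.0402 and 0.0351 in control and 0.0389, 0.0239 and 0.0487 in OFD1-depleted samples. These groups overlapped (two-sided exact permutation p = 0.8), and the log2 difference of -0.12 (standard error 0.312) became 0.17 without OFD1-depleted replicate 2.

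Emerin, the product of EMD (chrX:154379273-154381523, plus strand), is the LEM-domain protein lost in X-linked Emery-Dreifuss muscular dystrophy. EMD had 52.6, 63.3 and 58.9 FPKM in control and 53.4, 66.7 and 49.1 FPKM after OFD1 depletion. The highest and the lowest of these 6 values were both in OFD1-depleted samples. The log2 fold change was -0.05 with a 95% confidence interval of -0.38 to 0.27 (limma adjusted p = 0.835), and it was 0.01 without control replicate 2 and 0.04 without OFD1-depleted replicate 3.

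LEMD3 encodes MAN1, which also binds SMAD proteins (chr12:65169583-65248355, plus strand), and was the least abundant of the set. It had 7.10, 6.62 and 6.91 FPKM in control and 7.13, 4.77 and 6.37 FPKM after OFD1 depletion. OFD1-depleted replicate 2 was low, and replicate 1 was at the level of the highest control. The log2 fold change of -0.19 (95% confidence interval -0.56 to 0.17, limma adjusted p = 0.479) passed under none of the 18 alternatives.

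BANF1 encodes BAF, the DNA-bridging partner of the LEM-domain proteins (chr11:66002228-66004149, plus strand). Its values were 146, 161 and 142 FPKM in control and 111, 158 and 101 FPKM after OFD1 depletion. Here OFD1-depleted replicates 1 and 3 were below all controls, while replicate 2 lay within the control range. The mean of 150 ± 10.1 FPKM in control stood beside 124 ± 30.3 FPKM (SD, n = 3 each), with a log2 fold change of -0.30 (standard error 0.168, limma adjusted p = 0.251). Without replicate 2 of the OFD1-depleted samples it was -0.49 (limma adjusted p = 0.0113). BANF1 also passed with TPM scaling (0.0436) and with array weights (0.00968).

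The SUN-domain genes of the LINC complex differed from each other. SUN2 (chr22:38734725-38794143, minus strand) had 49.9, 42.7 and 59.2 FPKM in control and 32.6, 28.7 and 27.5 FPKM after OFD1 depletion. Controls varied widely, yet the lowest of them was above every OFD1-depleted sample. The mean fell from 50.6 ± 8.27 to 29.6 ± 2.69 FPKM (SD, n = 3 each), a log2 fold change of -0.76 (standard error 0.147, limma adjusted p = 0.00475), and the call held under all 18 alternatives with adjusted p from 0.000404 to 0.042.

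SUN1 (chr7:816615-896435, plus strand) had 32.4, 26.2 and 32.4 FPKM in control and 30.8, 21.9 and 29.6 FPKM after OFD1 depletion. Replicate 2 was the lowest sample in both groups, and the groups overlapped. The log2 fold change was -0.15 (95% confidence interval -0.50 to 0.20, limma adjusted p = 0.564). The ratio of SUN1 to SUN2 was 0.649, 0.613 and 0.547 in control and 0.942, 0.764 and 1.08 in OFD1-depleted samples. Every OFD1-depleted ratio was above every control ratio, with a log2 difference of 0.61 (standard error 0.161, two-sided exact permutation p = 0.1, the smallest possible, and 0.125 after adjustment over the 5 ratios). Both loci overlap other genes. SUN2 overlaps GTPBP1 on the other strand (9.55 and 4.79 FPKM on average in control and OFD1-depleted samples) and DNAL4 on the same strand (7.38 and 9.53 FPKM), and SUN1 overlaps GET4 on the same strand (18.5 and 22.2 FPKM). How shared reads were divided is not stated, so the levels of SUN1 and SUN2 are uncertain to that extent. LMNA, LMNB1, LBR, EMD and BANF1 overlap no other listed gene.

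**Figure D3:**
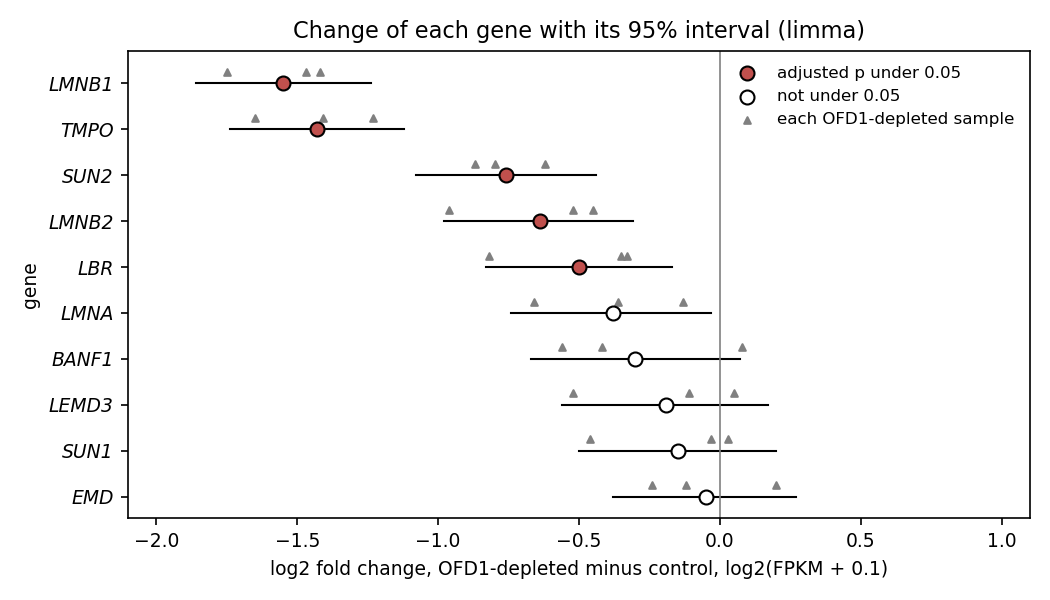
Log2 fold change, OFD1-depleted over control, of the 10 genes on the log2(FPKM + 0.1) scale, with filled circles for an adjusted p under 0.05, open circles for the others, lines for the 95% confidence interval from limma and triangles for each OFD1-depleted sample against the control mean. LMNB1 and TMPO lie furthest to the left, and the intervals of EMD, BANF1, LEMD3 and SUN1 include 0.

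The order of levels shifted with these changes. In control samples LMNA was highest at 575 FPKM, followed by BANF1 at 150 FPKM, EMD at 58.3 FPKM and SUN2 at 50.6 FPKM. LMNB2, TMPO, SUN1 and LMNB1 formed a close run from 37.1 to 29.0 FPKM, with LBR at 22.2 FPKM and LEMD3 at 6.88 FPKM below them. Within that run each gene's range overlapped the next, as did those of EMD and SUN2. In OFD1-depleted samples TMPO (12.4 FPKM) and LMNB1 (9.87 FPKM) had moved below LBR (15.9 FPKM), although the ranges of LBR, TMPO and LMNB1 overlapped from each to the next.

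The OFD1-depleted replicates did not share 1 order across the set. The lowest OFD1-depleted value was in replicate 2 for 5 genes and in replicate 3 for the other 5. The highest was in replicate 1 for 6 genes, in replicate 2 for 3 and in replicate 3 for 1. Against the control mean, the median log2 difference of the 10 genes was -0.39, -0.52 and -0.61 in OFD1-depleted replicates 1, 2 and 3.

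Around the lamina, genes of the nuclear envelope, or that act on it or on its chromatin, were counted in 5 lists. They are called other envelope genes for short. Mitotic kinases and chromatin genes are among them, and PLK1, CDK1, CBX5, SUV39H1 and RB1 are in the count of lower genes. Of 80 genes, 74 were tested, and 25 of these (33.8%) were lower and 1 (1.35%) was higher, against 11.9% and 5.07% of all genes. The median log2 fold change of the 74 was -0.28. Without control replicate 3, 10 were lower, without control replicate 1, 13, and without control replicate 2, 15. Of all genes tested, 867, 904 and 1020 were lower in these fits, against 1429 with every sample kept.

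Among other inner nuclear membrane and LINC genes, 3 of 12 tested were lower and 1 was higher. NRM, the multispanning membrane protein nurim, fell from 21.3 to 10.4 FPKM (log2 fold change -1.03, limma adjusted p = 0.000336). NEMP1, an inner membrane protein, fell from 6.62 to 2.66 FPKM (-1.31, adjusted p = 0.00106), and LEMD2, a further LEM-domain protein, from 26.7 to 15.2 FPKM (-0.80, adjusted p = 0.00146). SUN3, a SUN-domain gene known mainly from the testis, went the other way. It had 7.27, 8.68 and 6.89 FPKM in control and 24.7, 29.1 and 26.0 FPKM after OFD1 depletion, so that every OFD1-depleted sample was far above every control. SUN3 rose by 1.80 on the log2 scale (standard error 0.139, limma adjusted p = 1.88e-05) and passed under all 18 alternatives, and a rise this high or higher was seen for 0.166% of the genes tested. The nesprin gene SYNE2, named after its values were seen, was under the filter of 1 FPKM on average. Its values were 1.27, 1.31 and 1.35 FPKM in control and 0.49, 0.141 and 0.339 FPKM after OFD1 depletion, and with no filter on low values its adjusted p was 0.0662 by limma.

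Of 5 genes for enzymes that process the CaaX end shown for the lamins, 1 was lower. ICMT, which methylates the farnesylated cysteine, fell from 34.1 to 23.6 FPKM (log2 fold change -0.53, limma adjusted p = 0.0119), and this call was lost without control replicate 1 or control replicate 3. The other 4 did not pass in either direction.

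Nuclear pore genes had 12 of 31 tested lower and none higher, with a median log2 fold change of -0.41. NDC1, a transmembrane nucleoporin that anchors the pore in the membrane, fell from 16.0 to 6.08 FPKM (log2 fold change -1.39, limma adjusted p = 0.000147). NUP155 and NUP188, of the inner ring, fell from 7.11 to 3.79 FPKM (-0.92, adjusted p = 0.00713) and from 16.7 to 10.4 FPKM (-0.67, adjusted p = 0.00882). NUP62, of the central channel, fell from 22.5 to 15.2 FPKM (-0.56, adjusted p = 0.0116). The NUP188 call was lost without control replicate 3 (adjusted p = 0.0599 by limma), and the NUP62 call without control replicate 1 (0.0545) or control replicate 3 (0.0706). POM121 and POM121C are near copies of each other, and the split of reads between them is uncertain.

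Genes for taking the envelope apart and rebuilding it had 6 of 15 tested lower and none higher. The mitotic kinases PLK1 and CDK1 fell from 44.5 to 17.3 FPKM (log2 fold change -1.36, limma adjusted p = 4.8e-05) and from 53.7 to 24.5 FPKM (-1.12, adjusted p = 0.000147). CDK1 is also in the list of proliferation genes counted further on, so those 2 counts are not separate. LPIN1, a phosphatidate phosphatase, fell from 18.6 to 9.19 FPKM (-1.03, adjusted p = 0.00226). VRK1, the kinase that releases BAF from DNA, fell from 12.8 to 7.52 FPKM (-0.79, adjusted p = 0.0107, and 0.0545 without control replicate 3).

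Of 11 heterochromatin partners of the lamina, 3 were lower and none was higher. CBX5, the HP1 alpha protein that binds LBR, fell from 29.9 to 19.0 FPKM (log2 fold change -0.67, limma adjusted p = 0.0178), a call lost without control replicate 1 (0.0636) or control replicate 3 (0.0714). SUV39H1, a histone H3 lysine methyltransferase, fell from 6.93 to 3.5 FPKM (-0.99, adjusted p = 0.00431). RB1, the retinoblastoma protein, which is tethered by A-type lamins and LAP2 alpha, fell from 14.2 to 7.26 FPKM (-0.98, adjusted p = 0.00343).

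**Figure D4:**
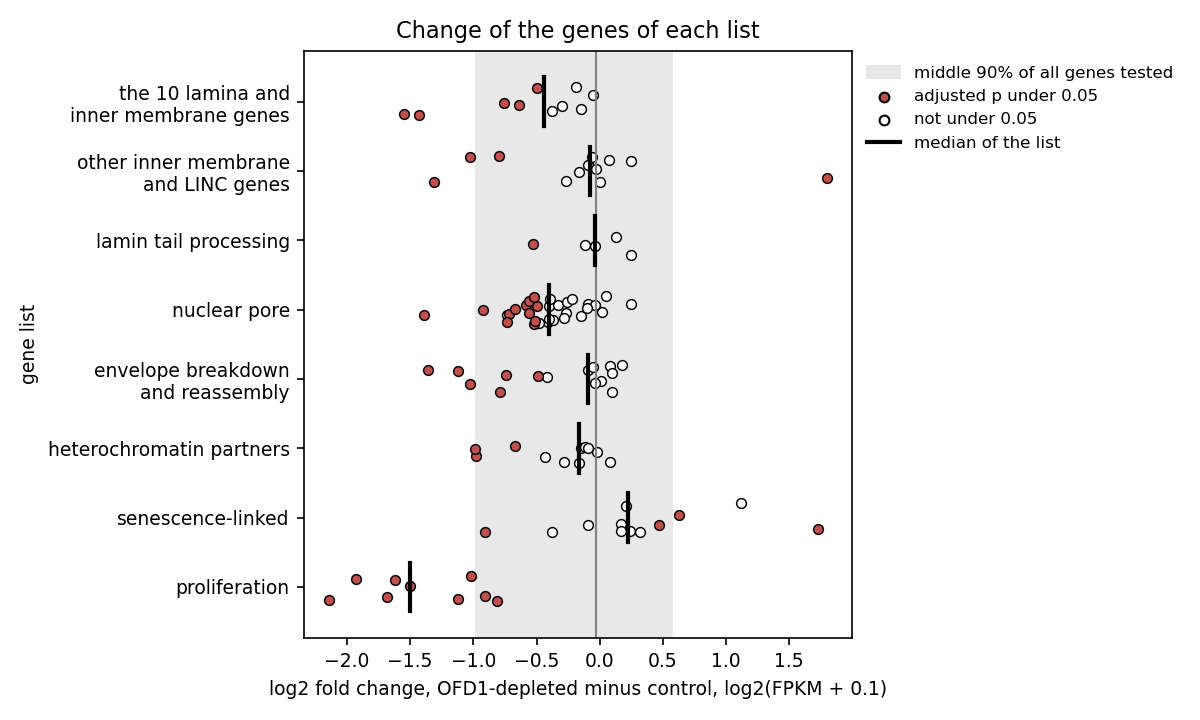
Log2 fold change, OFD1-depleted over control, of each tested gene in the lamina set, in the other nuclear envelope lists and in the senescence-linked and proliferation lists, filled where the adjusted p was under 0.05, with the list medians as bars and a grey band for the middle 90% of all genes tested. Medians run from -1.5 for the proliferation genes to 0.225 for the senescence-linked genes, and SUN3 is the one envelope gene past the threshold as higher.

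Because low LMNB1 is used as a marker of senescent cells, 15 senescence-linked genes were examined beside it, of which 12 were tested. As higher, 3 passed. IL6 rose from 3.3 ± 0.653 to 11.1 ± 0.594 FPKM (SD, n = 3 each; log2 fold change 1.73, limma adjusted p = 5.18e-05). CCL2, a chemokine, rose from 126 to 196 FPKM (0.63, adjusted p = 0.00473). CDKN1A, the cell cycle inhibitor p21, rose from 246 to 344 FPKM (0.47, adjusted p = 0.0406), a call that held in 11 of 18 alternatives and was lost without any 1 of the control samples or without OFD1-depleted replicate 1. HMGB2, a chromatin protein, fell from 99.2 to 52.8 FPKM (-0.91, adjusted p = 0.000522).

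The other 8 tested senescence-linked genes did not pass. On the log2 scale, CDKN2A, the p16 locus, differed by 0.17 (limma adjusted p = 0.57) and GLB1, the gene of lysosomal beta-galactosidase, by -0.09 (0.71). CDKN2B was at 0.24 (0.291), IL1B at 1.12 (0.0526, with groups that did not overlap and an adjusted p under 0.05 in 7 of 17 alternatives), CXCL8 at 0.21 (0.742, but 0.75 with an adjusted p of 0.0256 without OFD1-depleted replicate 2) and HMGB1 at 0.17 (0.664). MMP3 was listed at 0 in every sample, and IL1A and GDF15 were under the filter. The study reported that its inducible knockdown RPE1 cells regained proliferation once doxycycline was washed off. Its authors read this as excluding senescence. Whether the cells of these samples were senescent was not tested here.

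Proliferation markers were lower in the same samples as the 5 lamina genes that fell. All 9 passed as lower, against 11.9% of all genes tested, with a median log2 fold change of -1.50. The proliferation marker MKI67 fell from 24.1 to 6.33 FPKM (log2 fold change -1.93). The summed level of the 9 genes was 420 to 483 FPKM in control and 180 to 198 FPKM after OFD1 depletion. Their part in the lower levels of LMNB1, TMPO, SUN2, LMNB2 and LBR was not tested.

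Likeness to LMNB1 was measured as Pearson's r of log2(FPKM + 0.1) over the 6 samples, among 10704 protein-coding genes. The highest values were those of SMARCE1, LRRC57 and DR1 (r = 0.999 each), with log2 fold changes of -1.8, -0.75 and -0.87. The lowest were those of ZDHHC1 (-0.994), LURAP1L (-0.992) and GRAMD1A (-0.991), with log2 fold changes of 0.53, 1.2 and 0.49. Within the lamina set TMPO was closest to LMNB1 (0.995, place 23 of all genes), then SUN2 (0.917), LBR (0.898), LMNB2 (0.859) and LMNA (0.694). LEMD3 (0.577), BANF1 (0.507), SUN1 (0.441) and EMD (0.122) followed. The 6 points fall into the study's groups, so r mostly restates the difference between them, and 1271 genes (11.9%) had an r above 0.9.

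The promoters of the 10 genes were searched for short words found in many cell cycle promoters. The windows ran from 250 bases before to 50 bases after the start of the canonical GENCODE version 44 transcript on GRCh38, and both strands were searched. For LMNA, SUN1 and SUN2 this start lies far inside the listed gene, as for SUN1, with base 832476 against a gene start of 816615. Which start these cells used was not tested. CHR words (TTTGAA or TTCGAA) were found in 4 of 10 windows, against 12.8% of 19699 promoters of protein-coding genes. The windows with a match are shown over 30 bases, on the strand of the gene, with the match in capitals.
LMNB2: gttcTTTGAAcacgttttgaggttctctaa
LBR: cgccggggatgaTTCAAAaggtcgaggagc
SUN2: cggggctttgtgTTCAAAccggccaatggg
SUN1: cctctgcagtatggTTTGAAgtggtgaaca
These stretches lie at chr19:2457180-2457209 on the minus strand (LMNB2), chr1:225428168-225428197 on the minus strand (LBR), chr22:38756092-38756121 on the minus strand (SUN2) and chr7:832496-832525 on the plus strand (SUN1). The matches begin 246, 147 and 111 bases before the start for LMNB2, LBR and SUN2, and 35 bases after it for SUN1. LMNB2, LBR and SUN2 passed as lower, and SUN1 did not pass.

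E2F words (TTTCCCGC, TTTCGCGC, TTTGCCGC or TTTGGCGC) were found in the windows of LEMD3 and SUN1, or 2 of 10, against 4.36% of promoters. Neither of these genes passed as lower. CCAAT was found in 7 of 10 windows, against 36.1% of promoters, with BANF1, LMNB2 and SUN1 lacking it. LMNB1 and TMPO, the genes that fell most, held no E2F or CHR word and had 1 and 2 CCAAT matches. A match is a run of letters and not a bound site, and its absence says only that these letters are not in this window.

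**Figure D5:**
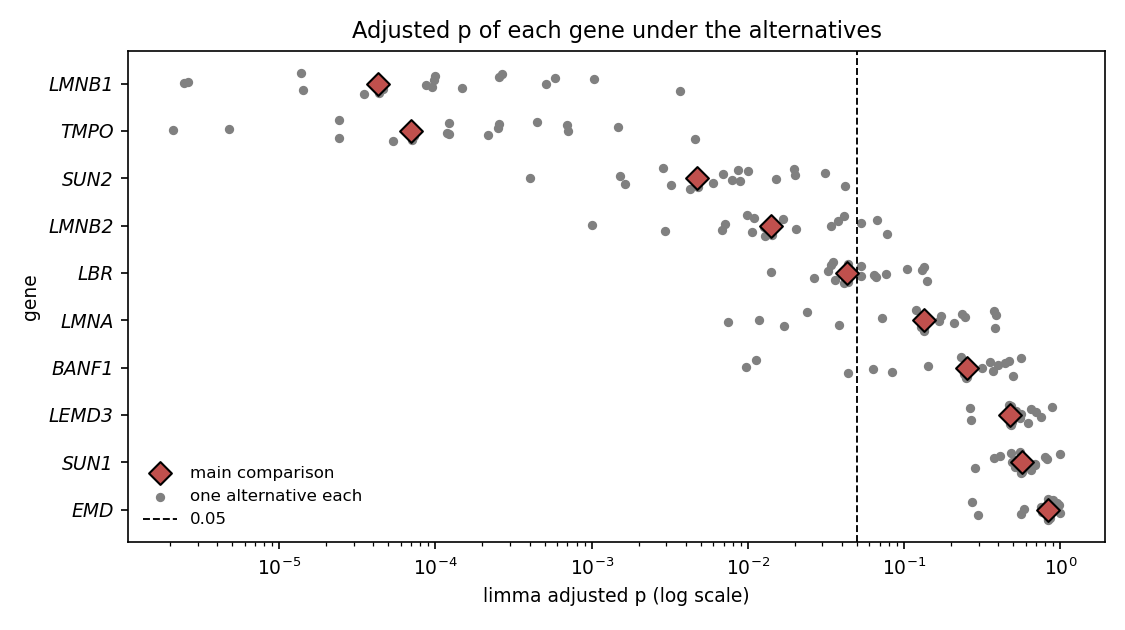
Adjusted p of the 10 genes from limma, on a log axis, with a diamond for the reported comparison, a grey point for each of 18 alternative settings and a dashed line at 0.05. All points of LMNB1, TMPO and SUN2 lie under 0.05 and all those of LEMD3, SUN1 and EMD above it, while LMNB2, LBR, LMNA and BANF1 have points on both sides.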

How the data were processed

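Paired-end reads were aligned by the authors with HISAT2 (version 2.0.5, per the labels) to GRCh38, and the authors deposited FPKM per gene and sample from StringTie, whose version and strand setting are not given in the sources used here. The extraction text of the labels speaks of frozen retinas and names both a TruSeq RNA kit and a directional NEBNext kit, whereas the growth text describes the cultured line. The table holds no read counts, read depth is unknown, and no count test was used. No column of another sample was left aside (0), and no samples held identical values.

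Values were compared with limma 3.58.1 (R 4.3.3), with a variance trend, on log2(FPKM + 0.1). The 12025 genes averaging 1 FPKM or more were tested two-sided, with Benjamini-Hochberg adjustment over all of them. Fold changes on this scale understate those of low genes. The fit was tested on simulated data. Ratios were compared by exact permutation. Sequences came from GENCODE version 44 on GRCh38. The genes and lists were chosen with earlier results of these data known. In each list, up to 4 genes past the threshold with the smallest p are named, with senescence-linked genes and the 3 genes most and 3 least like LMNB1. Alternatives were other pseudocounts, filters and scalings, no trend, array weights, a replicate block, protein-coding genes alone and each sample left out. The values of some genes in the lists are not reported here.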

Additional observations from a re-analysis of the deposited data

How the results depend on the processing

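Over 18 alternatives, 157 of 180 values of the 10 lamina genes kept their direction and their side of the threshold, 12 were no longer past it, 8 newly passed it and 3 changed sign. The sign changed for EMD (0.01 without control replicate 2 and 0.04 without OFD1-depleted replicate 3, with a range of -0.18 to 0.04 over the samples left out) and for SUN1 (6.72e-05 without OFD1-depleted replicate 2, with a range of -0.25 to 6.72e-05). With no filter on low values, 3 of the 10 genes were lower, as were 14 of the other envelope genes and 823 of all genes, with 260 higher. That setting adjusts over 28501 genes instead of 12025 and also refits the variance trend on them. The part of each in these counts was not tested. Without each sample in turn, 3 to 7 lamina genes, 10 to 26 other envelope genes and 867 to 1741 of all genes were lower, and 1 to 2 other envelope genes and 244 to 1077 of all genes were higher. Array weights gave 2263 lower and 1693 higher genes, with 2 other envelope genes higher. TPM scaling gave 268 higher genes and moved the median log2 fold change of all genes by -0.145, and quantile normalization gave 1093 higher genes. Log2 fold changes also crossed 0 for CDKN2A (-0.04 to 0.34 over the samples left out), CXCL8 (-0.19 to 0.75), GLB1 (-0.19 to 0.00439) and HMGB1 (-0.07 with array weights). The log2 difference of LBR/LMNA ran from -0.35 to 0.17. The cause of these changes was not tested.

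Samples with the same replicate number deviated together only weakly (r = 0.011 to 0.0579 across genes), and not every sample correlated best with its own number, so the numbers were not taken as pairs. With the replicate block, 1534 genes were lower and 762 higher, 1945 of these 2296 being among the 2039 without it, and 5 lamina genes and 26 other envelope genes were lower. Depth is unknown, and with 3 samples against 3 an exact test cannot go below p = 0.1.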
